A study of Mus musculus with 29 samples.

Results

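The dehydrogenases and reductases that act on steroids, retinoids, alcohols and aldehydes were followed in the livers of mice on 4 high-fat diets. The members were all genes on the array whose symbol begins with Aldh, Adh, Akr1, Akr7, Rdh, Hsd3b, Hsd11b or Hsd17b, without the bile acid, peroxisomal and sterol synthesis enzymes Hsd17b4, Hsd17b7, Hsd3b7 and Akr1d1. This gave 69 genes with 79 probes, of 31693 genes with 39429 probes, and 58 of the 69 could be tested among 19465 genes. Liver RNA came from 29 male wild-type C57BL/6N mice, each hybridised on its own 2-colour oligonucleotide array. The mice, 3 months old at the start, had been on chow and then ate a corn oil-based high-fat diet (cHF) for 7 weeks. The diet held both omega-3 phospholipids and rosiglitazone (cHF+PC+R, 8 livers), the phospholipids alone (cHF+PC, 8 livers), rosiglitazone alone (cHF+R, 6 livers) or neither (cHF, 7 livers). The phospholipids were rich in phosphatidylcholine, supplied EPA and DHA, fatty acids of marine origin, and took the place of about 7% of the dietary lipid. Rosiglitazone, a drug that activates the nuclear receptor PPAR-gamma, was given at a low dose, and every group, the cHF livers included, had eaten the high-fat diet.

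Most of these enzymes belong to a few protein families that move hydride between a substrate and NAD or NADP. Retinol dehydrogenases (Rdh) interconvert retinol and retinaldehyde, and retinaldehyde dehydrogenases (Aldh1a) turn retinaldehyde into retinoic acid, the ligand of the retinoic acid receptors. Hydroxysteroid dehydrogenases (Hsd3b, Hsd11b, Hsd17b) and the aldo-keto reductases Akr1c switch hydroxyl and keto groups of steroids and so set how active a hormone is, while several Hsd17b enzymes act on fatty acids instead. Alcohol dehydrogenases (Adh) and the mitochondrial and cytosolic Aldh enzymes clear ethanol, formaldehyde, lipid aldehydes and the aldehydes formed when amino acids are broken down, and liver is their main site.

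Several members are tandem copies, and the neighbours Rdh9 and Rdh16 both rose in each rosiglitazone diet against cHF. Their promoters are therefore shown with that of Rdh7, a further copy nearby. Each window runs from 250 bases before to 50 bases after the gene's start (RefSeq, GRCm38.p6), at chr10:127776155-127776454 (plus strand) for Rdh9, at chr10:127800903-127801202 (plus strand) for Rdh16 and at chr10:127888684-127888983 (minus strand) for the second of the 2 windows of Rdh7. Capitals mark the longest run of bases shared by Rdh9 and Rdh16, and in Rdh7 the longest run it shares with Rdh9.
Rdh9: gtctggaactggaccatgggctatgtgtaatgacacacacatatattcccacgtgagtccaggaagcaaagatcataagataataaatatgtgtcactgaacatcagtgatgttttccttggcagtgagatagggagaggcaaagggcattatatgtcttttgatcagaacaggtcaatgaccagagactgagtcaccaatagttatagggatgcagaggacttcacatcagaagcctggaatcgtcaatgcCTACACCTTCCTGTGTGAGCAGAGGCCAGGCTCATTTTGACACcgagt
Rdh16: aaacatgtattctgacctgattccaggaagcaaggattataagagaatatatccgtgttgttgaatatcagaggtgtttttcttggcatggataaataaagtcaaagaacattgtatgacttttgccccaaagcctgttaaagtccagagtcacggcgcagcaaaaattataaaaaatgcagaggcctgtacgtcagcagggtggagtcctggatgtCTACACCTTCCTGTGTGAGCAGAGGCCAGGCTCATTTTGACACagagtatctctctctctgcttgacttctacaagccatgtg
Rdh7: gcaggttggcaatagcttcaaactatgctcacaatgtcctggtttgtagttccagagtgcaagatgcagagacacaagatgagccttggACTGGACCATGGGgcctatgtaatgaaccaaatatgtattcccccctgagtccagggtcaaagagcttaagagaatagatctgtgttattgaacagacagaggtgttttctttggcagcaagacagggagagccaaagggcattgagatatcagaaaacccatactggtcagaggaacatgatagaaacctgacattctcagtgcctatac
The run shared by Rdh9 and Rdh16 was 43 bases long, the third longest among 1883 pairs of member windows from different genes, whose median was 8 bases, while Rdh9 and this Rdh7 window shared 13. The run of 43 bases covers bases 253 to 295 in Rdh9, after the gene's start, and 218 to 260 in Rdh16, across the start. Longer runs were found only between Akr1c12 and Akr1c13 (75 bases) and between Aldh1a1 and Aldh1a7 (65 bases). The windows were also searched on both strands for the nuclear receptor motif AGGTCA and for 2 copies of it in the same orientation with 1, 4 or 5 bases of any kind (N) between them, each of which holds the single motif. That motif was found in 13 of the 62 windows of the 54 members that have one (21%), against 16.3% of all 32851 windows. It begins at base 172 of the Rdh9 window and, on the opposite strand, at base 13 of the Rdh16 window. The Rdh7 window not shown holds it as well, at base 146 on the opposite strand, and so do windows of Rdh11, Adh4 and Aldh1l1. None of the 3 repeats was found in a member's window, and they were found in 0.0396%, 0.0152% and 0.00913% of all windows. A missing match says only that these letters are not in this window.

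Levels are given as log2 of liver signal (Cy5) over the signal of the common pool (Cy3), and changes as differences between group means of these levels. The words rose and fell are kept for adjusted p under 0.05 in limma's fit over all 19465 genes. Each of the 8 slides carried no group more than once, and changes are also given within slides. The share of all genes whose groups do not overlap was not worked out, so statements on overlap have no background beside them. The share of spots well above background in Cy5 was 80.8% on cHF replicate 4 and 55.0% to 62.5% on the other arrays. Across all probes, the least similar pair of arrays had a correlation of -0.305, and the direction of the ratios was kept because the labels state the dyes. Every comparison with cHF shares the same 7 control livers. When each array was centred on its median in place of the loess curve, 1 of the 42 calls on members remained, and when loess was followed by scaling between arrays 1 remained, while 35 remained in the authors' deposited value table. Calls over all genes dropped too, in cHF+PC+R against cHF livers from 1850 to 82 with median centring and to 144 with scaling. The cause was not tested. In whole liver, fewer cells of a type and less RNA per cell cannot be told apart.

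Of the 58 tested members, 13 changed in cHF+PC+R against cHF livers (7 rose, 6 fell), which is 22.4% of them, where 9.5% of all genes were called (4.74% higher, 4.76% lower). With the phospholipids alone, 6 changed (4 rose, 2 fell), or 10.3%, against 3.93% of all genes (1.82% higher, 2.11% lower). With rosiglitazone alone, 11 changed (3 rose, 8 fell), or 19%, against 3.12% of all genes (2.02% higher, 1.09% lower). Between cHF+PC+R and cHF+R livers, 11 changed (9 rose, 2 fell), or 19%, against 7.14% of all genes (3.31% higher, 3.83% lower). At an unadjusted p under 0.05 the members numbered 23, 14, 19 and 20 in the order of these 4 comparisons, beside 24.4%, 18.5%, 15% and 22.2% of all genes. The median change over the 58 members lay between -0.03 and 0.06 in these 4 comparisons and that over all genes between -0.01 and 0.01, so the members moved in both directions. In all, 21 members changed in at least 1 comparison. The share of all genes called in at least 1 comparison was not worked out, so this count has no background beside it. Of the 42 calls, 25 remained when any 1 array was left out.

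**Figure D1:**
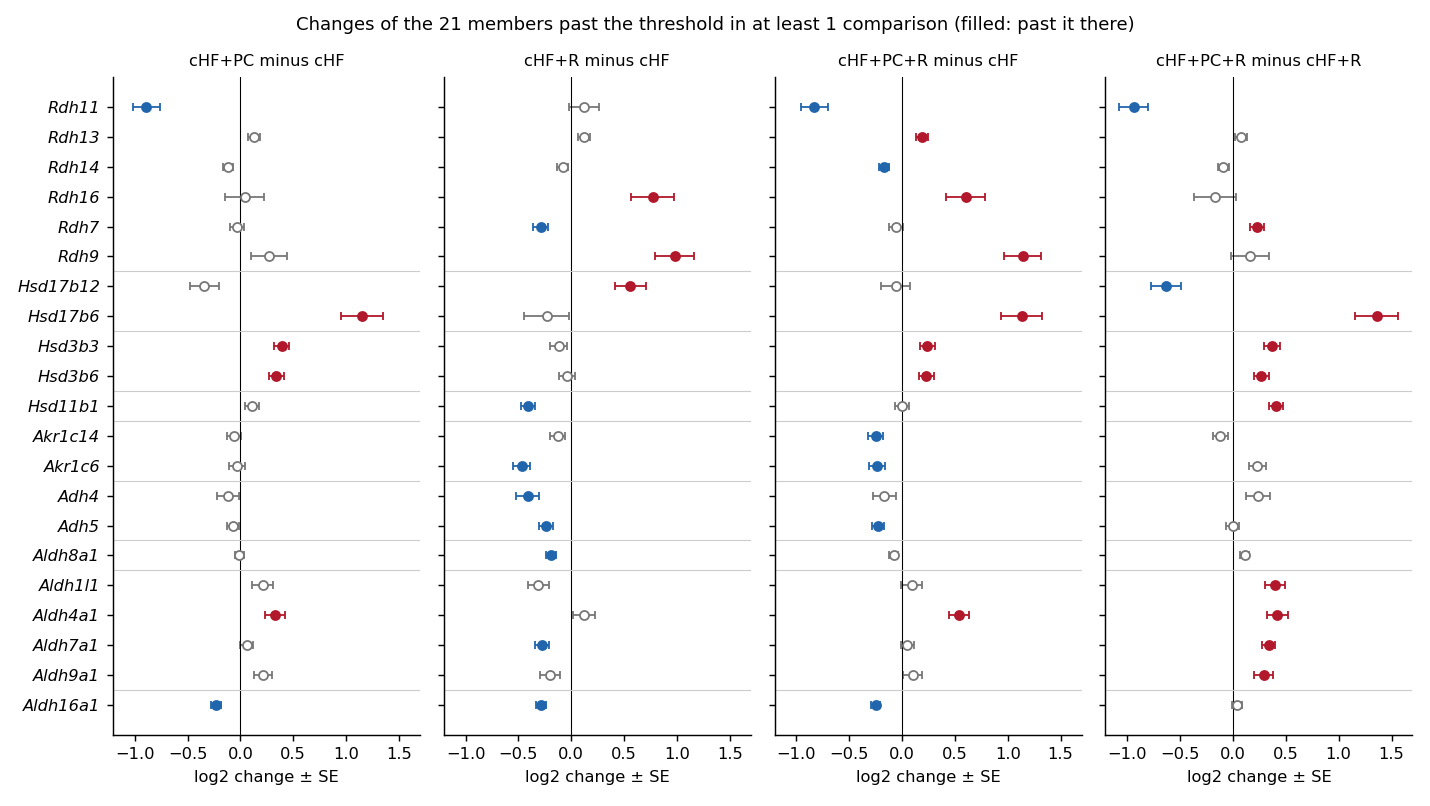
Log2 change with its SE (horizontal axes) of the 21 members called in at least 1 comparison, ordered by enzyme family from top to bottom, in 4 comparisons. Filled points are past the threshold (red higher, blue lower) and open points are not. Rdh11 and Hsd17b6 lie far from 0 wherever phospholipids were added, Rdh9 and Rdh16 in both comparisons of a rosiglitazone diet with cHF. Aldh16a1, Aldh8a1 and Rdh7 in cHF+R minus cHF, and Rdh7 in cHF+PC+R minus cHF+R, change sign with median centring.

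The largest rises among the retinol dehydrogenases were those of Rdh9 and Rdh16, short-chain dehydrogenases that act on retinol and on androgens, and both passed in each rosiglitazone diet against cHF. The lowest, median and highest log2 ratios of Rdh9 were 0.01, 0.51 and 0.90 in cHF+PC+R livers, -1.04, -0.31 and 0.22 in cHF+PC livers, -0.57, 0.52 and 0.75 in cHF+R livers, and -0.90, -0.60 and -0.33 in cHF livers. All 8 cHF+PC+R livers thus lay above all 7 cHF livers, and of the cHF+R livers only replicate 1 fell within the cHF range. The change was 1.14 ± 0.172 (SE) with both supplements (2.21-fold, adjusted p = 7.32e-05) and 0.98 ± 0.185 with rosiglitazone alone (1.98-fold, adjusted p = 0.00162), and it was upward on 7 of 7 and 5 of 5 slides. With phospholipids alone the change was 0.27 ± 0.172 (adjusted p = 0.422), with a 95% interval from -0.08 to 0.63.

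Rdh16 had log2 ratios of -0.36, 0.25 and 0.72 (lowest, median, highest) in cHF+PC+R livers, of -1.11, -0.21 and 0.14 in cHF+PC livers, of -0.49, 0.45 and 0.96 in cHF+R livers and of -0.81, -0.23 and -0.08 in cHF livers. Here 5 of the 6 cHF+R livers lay above every cHF liver and replicate 6 lay among them. The gene rose by 0.77 ± 0.203 in cHF+R livers (1.71-fold, adjusted p = 0.0291) and by 0.60 ± 0.188 in cHF+PC+R livers (adjusted p = 0.0418). Neither call was kept with the slide as a block, where the adjusted p was 0.0508 and 0.0687. Both were also lost in the authors' deposited value table. The first was lost too when only the groups compared were fitted. The second was lost with Feature Extraction's processed signals, without the filter on dim probes and with the replicate block. Leaving out cHF replicate 1 or 3, or cHF+R replicate 1, 3 or 5, ended the first call, with changes from 0.66 to 0.75, and the second was lost without any 1 of 11 arrays, with changes from 0.52 to 0.63.

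Rdh11, a microsomal enzyme that reduces retinaldehyde to retinol, fell in each comparison that added phospholipids. Its log2 ratios were -0.95, -0.45 and -0.29 (lowest, median, highest) in cHF+PC+R livers, -0.97, -0.67 and -0.09 in cHF+PC livers, 0.16, 0.38 and 0.60 in cHF+R livers and -0.08, 0.21 and 0.70 in cHF livers. No liver with phospholipids reached the range of the livers without them, with -0.09 in cHF+PC replicate 8 the nearest to the lowest cHF liver. Rdh11 fell by 0.89 on the log2 scale with phospholipids alone (SE 0.128, adjusted p = 9.11e-05), by 0.83 with both supplements (SE 0.128, adjusted p = 0.000112) and by 0.94 in cHF+PC+R against cHF+R livers (SE 0.134, adjusted p = 4.91e-05), on every slide that could be compared. With rosiglitazone alone it did not pass. The probe lay on chromosome 12 at chr12:80276608-80276667 (mm9).

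Of the other 9 retinol dehydrogenases tested, 3 changed in at least 1 comparison, each by a small amount. That count too has no share of all genes beside it. Rdh7, which oxidises cis-retinol and androgens in mouse, had log2 ratios of -0.10, 0.08 and 0.21 (lowest, median, highest) in cHF+PC+R livers, -0.02, 0.08 and 0.34 in cHF+PC livers, -0.46, -0.11 and -0.03 in cHF+R livers and -0.06, 0.17 and 0.32 in cHF livers, and the groups overlapped. It fell by 0.29 on the log2 scale in cHF+R livers (SE 0.0702, adjusted p = 0.0167), although with median centring the change was 0.08, where the median of all genes was 0.152, so that it lay -0.07 from that median. It rose by 0.23 ± 0.0682 in cHF+PC+R against cHF+R livers (adjusted p = 0.0406), which became -0.05 with median centring (0.01 relative to the median of all genes), and its call was lost without any 1 of 8 arrays (changes 0.17 to 0.23), with the slide as a block (adjusted p = 0.0682) and with the replicate block. The fall with rosiglitazone alone was lost without cHF+R replicate 5, where it was -0.23. Both Rdh7 calls were also lost in the authors' deposited value table and when only the groups compared were fitted. Its rise was lost too with Feature Extraction's processed signals and without the filter on dim probes. Rdh13, a mitochondrial retinaldehyde reductase, had 0.05, 0.13 and 0.30 in cHF+PC+R livers, -0.07, 0.05 and 0.41 in cHF+PC livers, -0.02, 0.01 and 0.27 in cHF+R livers and -0.10, -0.06 and 0.02 in cHF livers. It rose by 0.19 ± 0.0542 with both supplements (adjusted p = 0.0225), a call lost without cHF+PC+R replicate 3 (0.17). This call was also lost without background subtraction, with Feature Extraction's processed signals and in the authors' deposited value table. Rdh14, another retinaldehyde reductase, had -0.12, -0.07 and 0.00 in cHF+PC+R livers, -0.09, -0.01 and 0.12 in cHF+PC livers, -0.10, 0.03 and 0.15 in cHF+R livers and 0.01, 0.07 and 0.39 in cHF livers, and fell by 0.17 with both supplements (SE 0.0471, adjusted p = 0.0187). Neither Rdh13 nor Rdh14 overlapped between the 8 cHF+PC+R and the 7 cHF livers, but the gaps were narrow. For Rdh13 the lowest cHF+PC+R liver was at 0.05 and the highest cHF liver at 0.02. For Rdh14 the highest cHF+PC+R liver was at 0.00 and the lowest cHF liver at 0.01.

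Rdh9 and Rdh16 stand in a row of related genes on chromosome 10, in the order Rdh1, Rdh9, Rdh16, Rdh19, Rdh7 and Hsd17b6, whose probes span 226.5 kb from that of Rdh1 (from chr10:127205107-127205166 to chr10:127431580-127431639, mm9). Rdh5 follows 1145.5 kb from the Rdh1 probe. Rdh1, an all-trans-retinol dehydrogenase, lies next to Rdh9 and changed by 0.07 ± 0.0946 with rosiglitazone (adjusted p = 0.78). Along the row, the 2 members that rose with rosiglitazone were neighbours, Rdh7 fell with it (its sign turned with median centring), and Hsd17b6 rose in both phospholipid diets. The difference between neighbours was not tested.

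**Figure D2:**
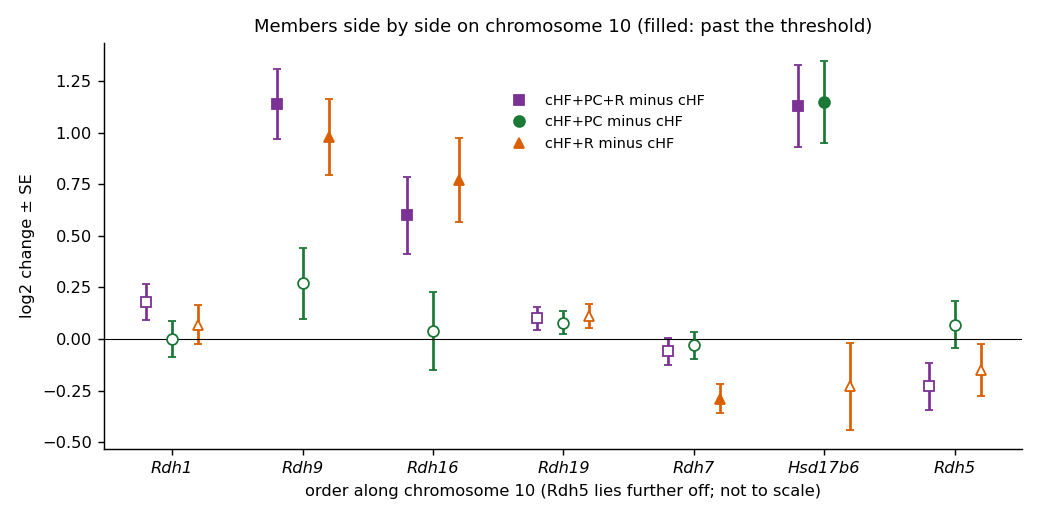
Log2 change with its SE (vertical axis) for the 7 members on this stretch of chromosome 10, in their order (horizontal axis, not to scale), for cHF+PC+R, cHF+PC and cHF+R livers against cHF livers. Filled symbols are past the threshold. Rdh9 and Rdh16 are high in both rosiglitazone diets and Hsd17b6 in both phospholipid diets. The fall of Rdh7 in cHF+R livers changes sign with median centring.

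Hsd17b6 had the largest change of any member. It is a short-chain dehydrogenase close to the retinol dehydrogenases that acts on androgens. Its lowest, median and highest log2 ratios were -0.01, 0.29 and 0.99 in cHF+PC+R livers, -0.06, 0.34 and 1.1 in cHF+PC livers, -1.87, -0.99 and 0.01 in cHF+R livers and -0.94, -0.75 and -0.51 in cHF livers. Each liver with phospholipids was above each cHF liver, and among cHF+R livers replicate 6 alone reached 0.01. The rise was 1.13 ± 0.198 with both supplements (2.19-fold, adjusted p = 0.000437), 1.15 ± 0.198 with phospholipids alone (2.22-fold, adjusted p = 0.000957) and 1.36 ± 0.206 in cHF+PC+R against cHF+R livers (2.57-fold, adjusted p = 0.000115). These calls remained when any 1 array was left out, with changes from 1.04 to 1.56 over the 3 comparisons. With rosiglitazone alone the change was -0.23 ± 0.213 (adjusted p = 0.669).

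Hsd17b12, the ketoacyl-CoA reductase of long-chain fatty acid elongation, rose with rosiglitazone alone. It had log2 ratios of -0.62, -0.27 and 0.12 (lowest, median, highest) in cHF+PC+R livers, -1.20, -0.43 and -0.30 in cHF+PC livers, -0.22, 0.43 and 0.74 in cHF+R livers and -0.57, -0.09 and 0.00 in cHF livers. Again 5 of 6 cHF+R livers lay above all cHF livers and replicate 6 did not. It rose by 0.56 ± 0.147 with rosiglitazone alone (1.48-fold, adjusted p = 0.0279) and fell by 0.63 in cHF+PC+R against cHF+R livers (SE 0.143, adjusted p = 0.00676). The rise had an adjusted p of 0.0684 with the slide as a block and did not pass when cHF+R replicate 1, 3 or 5, or cHF replicate 3 or 4, was left out (changes 0.49 to 0.54). Hsd17b13, a lipid droplet protein of hepatocytes, did not pass in any comparison, with changes from -0.09 to 0.33.

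**Figure D3:**
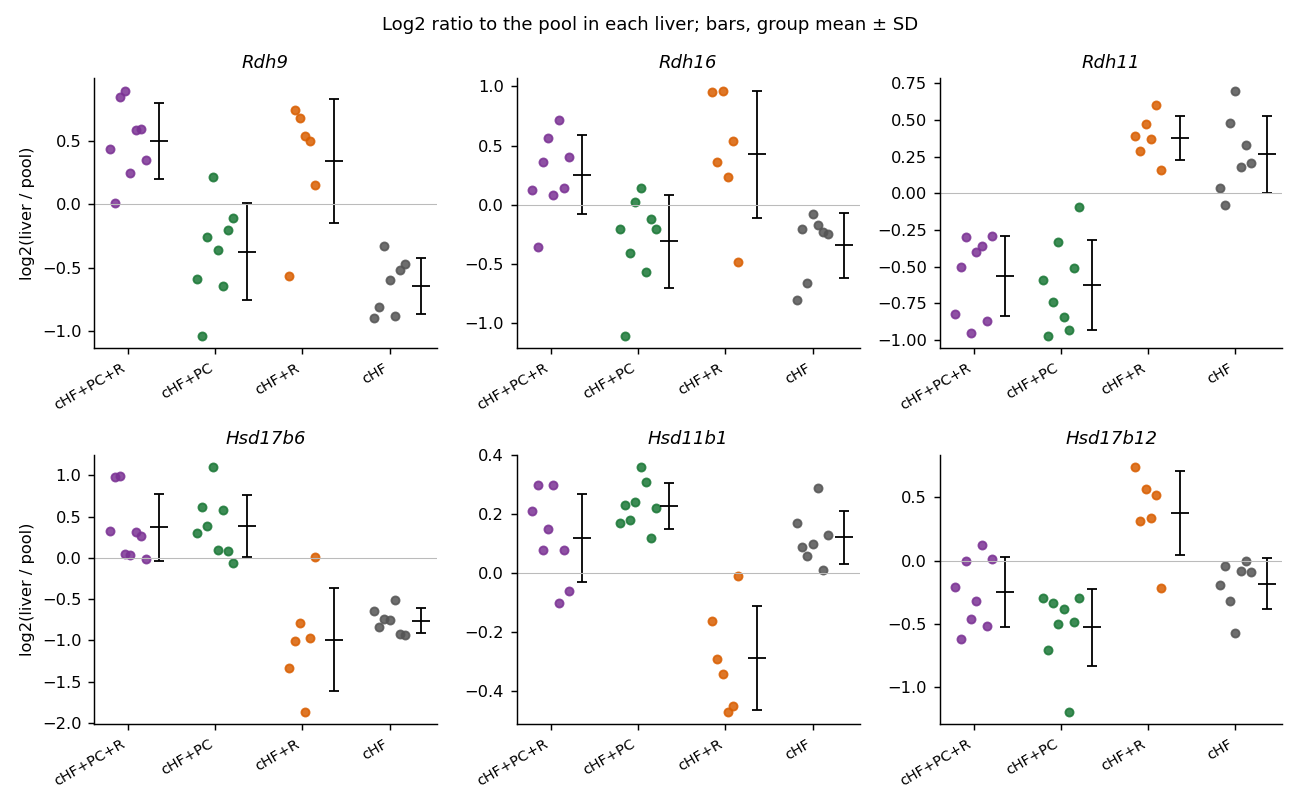
Log2 ratio to the pool (vertical axes) of each liver for 6 members, in the 4 diet groups, with the group mean and SD as bars. The vertical scales differ between panels. Rdh9 is high in the rosiglitazone groups, Rdh11 low and Hsd17b6 high in the phospholipid groups, Hsd11b1 low and Hsd17b12 high in cHF+R livers, where replicate 6 lies closest to the cHF livers for Rdh16, Hsd11b1 and Hsd17b12.

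The Hsd3b enzymes, which oxidise or reduce the hydroxyl group at the third carbon of steroids, sit in a cluster on chromosome 3. With phospholipids alone 2 of the 5 tested rose, where 3.93% of all genes were called. Hsd3b3 had log2 ratios of -0.21, 0.06 and 0.33 (lowest, median, highest) in cHF+PC+R livers, 0.03, 0.17 and 0.53 in cHF+PC livers, -0.49, -0.30 and -0.17 in cHF+R livers and -0.41, -0.12 and -0.10 in cHF livers. For Hsd3b6 they were -0.25, 0.04 and 0.36 in cHF+PC+R livers, 0.01, 0.14 and 0.32 in cHF+PC livers, -0.48, -0.17 and -0.07 in cHF+R livers and -0.35, -0.20 and -0.06 in cHF livers. For both genes, all cHF+PC livers lay above all cHF livers, while cHF+PC+R and cHF livers overlapped.

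With phospholipids alone Hsd3b3 rose by 0.39 ± 0.0728 (1.31-fold, adjusted p = 0.00197) and Hsd3b6 by 0.34 ± 0.0699 (1.26-fold, adjusted p = 0.00527), each on 7 of 7 slides. With both supplements the rises were smaller, 0.24 ± 0.0728 for Hsd3b3 (adjusted p = 0.032) and 0.23 ± 0.0699 for Hsd3b6 (adjusted p = 0.0322), and each was lost without any 1 of 7 arrays (changes 0.20 to 0.24 for Hsd3b3 and 0.19 to 0.23 for Hsd3b6). That of Hsd3b3 was also lost in the authors' deposited value table. That of Hsd3b6 was lost with Feature Extraction's processed signals and when only the groups compared were fitted. Against cHF+R livers, cHF+PC+R livers were higher by 0.37 ± 0.076 for Hsd3b3 (adjusted p = 0.003) and by 0.27 ± 0.0729 for Hsd3b6 (adjusted p = 0.0205). The second of these was lost without cHF+R replicate 1 or 3 (0.25 and 0.22) and when only the groups compared were fitted. Hsd3b5, a ketosteroid reductase of male mouse liver, did not pass in any comparison, and its widest spread was in cHF+R livers, with -2.08, -0.27 and 0.16 against -0.16, 0.19 and 0.45 in cHF livers (change -0.76 ± 0.241, adjusted p = 0.0818).

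Livers that were high for Hsd3b3 were also high for Hsd3b6 within their own diet group. Over the 29 livers, after each group's mean was taken out, Pearson's r was 0.75 and Spearman's rho 0.76 (permutation test, p adjusted over 25 pairs 0.00025 and 0.0005), r was 0.76 without the 2 livers farthest from the median and 0.78 after the slide means were also removed. The probes of these 2 genes share no run of 12 or more bases, and neither do their promoters. Probes were compared only with probes, so this says nothing on binding of the other gene's transcript. Of the other 24 pairs within a family, Akr1c6 with Akr1c14 (r = 0.65, rho = 0.55, n = 26) and Aldh1l1 with Aldh7a1 (r = 0.63, rho = 0.66, n = 28) passed as well, with adjusted p of 0.00258 for r in both and of 0.0322 and 0.00362 for rho. For them r was 0.50 and 0.72 without the 2 farthest livers. Rdh9 with Rdh16 did not pass (r = 0.34, rho = 0.33, adjusted p of 0.233 and 0.196).

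**Figure D4:**
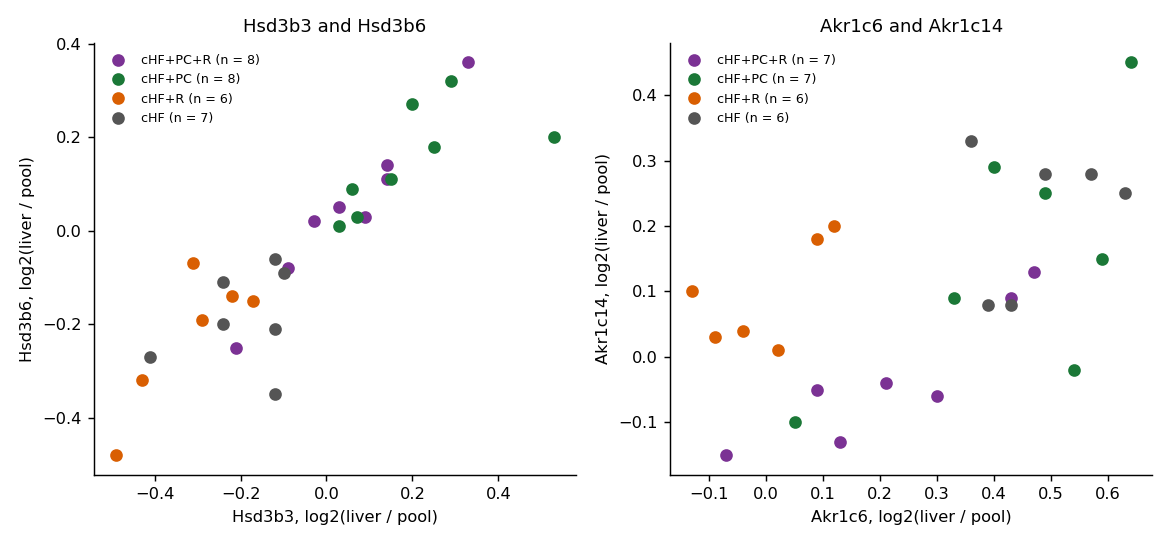
Log2 ratio to the pool of Hsd3b6 against Hsd3b3 (left) and of Akr1c14 against Akr1c6 (right), with 1 point per liver coloured by diet group. Within a group, livers high for one gene of a pair tend to be high for the other. The order of the groups differs for the pair on the right: cHF+R livers have the lowest mean of Akr1c6 and cHF+PC+R livers that of Akr1c14.

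Some Hsd3b probes resemble each other, and binding of a relative's transcript was not tested. Stretches of 30 bases or fewer from probes on chromosome 3 (mm9) show this, with capitals for the shared run. The first pair are the probes of Hsd3b4 and Hsd3b5, at chr3:98303020-98303079 and chr3:98422576-98422635, and the second a further probe of Hsd3b2 and the probe of Hsd3b3, at chr3:98515054-98515113 and chr3:98545455-98545514.
Hsd3b4: ATACCTTTATGAAGCTCAAAGAAaagaaca
Hsd3b5: ATACCTTTATGAAGCTCAAAGAAcaat
Hsd3b2: CAATGGAAGAAACAATtatttgtcaatacc
Hsd3b3: CAATGGAAGAAACAATaaatatttgtc
The shared runs are 23 and 16 of the 60 bases of a probe. The 3 probes of Hsd3b2 differed in direction with rosiglitazone alone: the brightest, which stands for the gene, changed by 0.10 and the others by -0.31 and -0.29. In cHF+PC+R against cHF+R livers the brightest changed by 0.10 (adjusted p = 0.754 in limma's fit over probes). There the probe shown above was higher by 0.40 (adjusted p = 0.0192) and the third by 0.33 (adjusted p = 0.0942).

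Hsd11b1, which regenerates active glucocorticoid from its keto form, was lowest in livers that had rosiglitazone without phospholipids. Its log2 ratios were -0.10, 0.11 and 0.30 (lowest, median, highest) in cHF+PC+R livers, 0.12, 0.23 and 0.36 in cHF+PC livers, -0.47, -0.32 and -0.01 in cHF+R livers and 0.01, 0.10 and 0.29 in cHF livers. The cHF+R and cHF livers did not overlap, although cHF+R replicate 6 (-0.01) lay just below the lowest cHF liver. Hsd11b1 fell by 0.41 on the log2 scale with rosiglitazone alone (1.33-fold lower, SE 0.0696, adjusted p = 0.000511) and was higher by 0.41 ± 0.0675 in cHF+PC+R than in cHF+R livers (adjusted p = 0.000328). In cHF+PC+R against cHF livers the change was 0.00, with a 95% interval from -0.14 to 0.13. The interaction, which tests whether the effects of both supplements add up on the log2 scale, was 0.30 ± 0.0935 (adjusted p = 0.607). The probe lay at chr1:195048169-195048228 (mm9). Hsd11b2, which inactivates glucocorticoid in kidney, was well above background on 0 of the 29 arrays.

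Among the Akr1c aldo-keto reductases, Akr1c6, which reduces keto groups of sex steroids in mouse liver, fell with rosiglitazone. It had log2 ratios of -0.07, 0.23 and 0.47 (lowest, median, highest) in cHF+PC+R livers, 0.05, 0.47 and 0.64 in cHF+PC livers, -0.13, -0.01 and 0.12 in cHF+R livers and 0.36, 0.43 and 0.63 in cHF livers. The cHF+R livers all lay below the cHF livers. The fall was 0.47 on the log2 scale with rosiglitazone alone (SE 0.0816, adjusted p = 0.000593) and 0.24 with both supplements (SE 0.0759, adjusted p = 0.04), of which the second was lost without any 1 of 9 arrays (changes -0.25 to -0.20) and with the slide as a block (adjusted p = 0.0511). This second call was also lost without background subtraction and without the filter on dim probes. Akr1c14, a hydroxysteroid dehydrogenase that inactivates androgens, had values in 26 livers, with -0.15, -0.05 and 0.13 in cHF+PC+R livers, -0.10, 0.15 and 0.45 in cHF+PC livers, 0.01, 0.07 and 0.20 in cHF+R livers and 0.08, 0.26 and 0.33 in cHF livers, and these ranges overlapped. It fell by 0.25 with both supplements (SE 0.0704, adjusted p = 0.0263), which was lost without cHF replicate 3, 5 or 7 or cHF+PC+R replicate 2 or 3 (changes -0.23 to -0.22) and with the slide as a block (adjusted p = 0.0578). The other 5 Akr1c genes tested and the 7 other aldo-keto reductases did not pass in any comparison.

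Of the 5 alcohol dehydrogenases, Adh4 and Adh5 changed, both of them with rosiglitazone alone, where 3.12% of all genes were called. Adh4, which oxidises retinol and larger alcohols, had values in 26 of 29 livers and fell by 0.41 on the log2 scale with rosiglitazone alone (SE 0.109, adjusted p = 0.0315). Levels were -0.40, -0.24 and 0.05 in cHF+PC+R livers, -0.65, -0.13 and 0.11 in cHF+PC livers, -0.73, -0.56 and -0.16 in cHF+R livers and -0.20, -0.04 and 0.11 in cHF livers, so that 2 cHF+R livers (replicates 1 and 2, at -0.19 and -0.16) lay within the cHF range. The call was lost with the slide as a block (adjusted p = 0.0913) and without any 1 of 7 arrays, with changes from -0.40 to -0.36. With the replicate block it was lost as well. Adh5, the glutathione-dependent formaldehyde dehydrogenase, had -0.34, -0.21 and 0.03 in cHF+PC+R livers, -0.25, 0.00 and 0.14 in cHF+PC livers, -0.31, -0.14 and -0.03 in cHF+R livers and -0.03, 0.02 and 0.20 in cHF livers. It fell by 0.23 with both supplements (SE 0.0592, adjusted p = 0.0114) and by 0.24 with rosiglitazone alone (SE 0.0636, adjusted p = 0.0325). The second did not pass when cHF+R replicate 3, 4 or 6, or cHF replicate 3 or 5, was left out (changes -0.24 to -0.21) and had an adjusted p of 0.0955 with the slide as a block. Adh1, the main alcohol dehydrogenase of liver, changed by 0.02 to 0.18 in the 3 comparisons with cHF and did not pass.

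Of the 5 retinaldehyde dehydrogenases tested, 1 passed with rosiglitazone alone, where 3.12% of all genes were called, and none in the other comparisons. In cHF+PC+R against cHF+R livers 3 of the 5 had an unadjusted p under 0.05, beside 22.2% of all genes. Aldh8a1, an aldehyde dehydrogenase of the kynurenine pathway that also acts on retinaldehyde, fell by 0.19 on the log2 scale in cHF+R livers (SE 0.0469, adjusted p = 0.019), a change that turned to 0.13 with median centring, -0.02 relative to the median of all genes. Levels were -0.26, -0.17 and -0.02 in cHF+PC+R livers, -0.22, -0.06 and 0.06 in cHF+PC livers, -0.35, -0.24 and -0.18 in cHF+R livers and -0.17, -0.06 and 0.00 in cHF livers. The cHF+R and cHF livers did not overlap, and the call was lost without cHF+R replicate 4 (-0.17). Aldh1a1, the most studied retinaldehyde dehydrogenase of liver, had -0.54, -0.02 and 0.21 in cHF+R livers against -0.09, 0.48 and 0.57 in cHF livers, a change of -0.41 ± 0.164 that did not pass (adjusted p = 0.198). Its 95% interval ran from -0.75 to -0.08.

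Of 5 aldehyde dehydrogenases of amino acid, carnitine and folate metabolism tested, 4 were higher in cHF+PC+R than in cHF+R livers, where 7.14% of all genes were called, and 1 was higher in cHF+PC than in cHF livers, where 3.93% were. The difference between these comparisons was not tested. Aldh4a1, which oxidises the aldehyde formed from proline, had log2 ratios of -0.07, 0.12 and 0.96 (lowest, median, highest) in cHF+PC+R livers, -0.19, 0.03 and 0.18 in cHF+PC livers, -0.35, -0.20 and -0.09 in cHF+R livers and -0.42, -0.37 and -0.10 in cHF livers. Its 8 cHF+PC+R livers lay above all cHF and all cHF+R livers, with replicate 6 far above the rest. It rose by 0.54 ± 0.095 with both supplements (1.45-fold, adjusted p = 0.000514), by 0.33 ± 0.095 with phospholipids alone (adjusted p = 0.0437) and by 0.42 ± 0.0992 against cHF+R livers (adjusted p = 0.0096). The call with phospholipids alone was lost without any 1 of 12 arrays (changes 0.31 to 0.34). It was also lost without the filter on dim probes and with the replicate block. The call against cHF+R livers was lost when only the groups compared were fitted.

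Aldh7a1, of lysine breakdown, fell by 0.28 with rosiglitazone alone (SE 0.0653, adjusted p = 0.0123) and was higher by 0.34 ± 0.0611 in cHF+PC+R than in cHF+R livers (adjusted p = 0.00095). A second probe of Aldh7a1, also well above background on all 29 arrays, gave -0.10 (adjusted p = 0.492) and 0.15 (adjusted p = 0.127), and with the mean of both probes the fall with rosiglitazone did not pass (-0.17, adjusted p = 0.0565). For the brighter probe the log2 ratios were 0.11, 0.23 and 0.39 in cHF+PC+R livers, 0.02, 0.25 and 0.38 in cHF+PC livers, -0.23, -0.12 and 0.07 in cHF+R livers and 0.01, 0.19 and 0.33 in the 6 cHF livers with a value, so that cHF+PC+R lay above cHF+R without overlap. Aldh1l1, a folate enzyme, was higher by 0.40 ± 0.096 in cHF+PC+R than in cHF+R livers (adjusted p = 0.0109), with -0.21, 0.21 and 0.63 in cHF+PC+R livers, 0.10, 0.34 and 0.75 in cHF+PC livers, -0.28, -0.15 and -0.11 in cHF+R livers and 0.04, 0.14 and 0.25 in 6 cHF livers. Aldh9a1, of carnitine synthesis, was higher by 0.29 ± 0.091 (adjusted p = 0.0468), with -0.12, 0.15 and 0.40 in 7 cHF+PC+R livers, -0.06, 0.35 and 0.54 in cHF+PC livers, -0.17, -0.15 and 0.11 in cHF+R livers and -0.11, 0.07 and 0.28 in cHF livers. Groups overlapped for both genes, and the Aldh9a1 call was lost without any 1 of 11 arrays (changes 0.26 to 0.31). The Aldh9a1 call was also lost without the filter on dim probes, with array weights and when only the groups compared were fitted. Aldh6a1, of valine breakdown, did not pass in any comparison.

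Among the remaining aldehyde dehydrogenases, Aldh16a1 was lower than in cHF livers in all 3 supplemented groups. The log2 ratios were -0.28, -0.16 and -0.06 (lowest, median, highest) in cHF+PC+R livers, -0.34, -0.12 and -0.04 in cHF+PC livers, -0.28, -0.20 and -0.15 in cHF+R livers and -0.04, 0.11 and 0.18 in cHF livers. It fell by 0.25 with both supplements (SE 0.0433, adjusted p = 0.000394), by 0.23 with phospholipids alone (SE 0.0433, adjusted p = 0.00231) and by 0.29 with rosiglitazone alone (SE 0.0466, adjusted p = 0.000231), of which the last became 0.02 with median centring, -0.13 relative to the median of all genes. The changes are small but were in the same direction on all 7, 7 and 5 slides. Aldh2, the mitochondrial enzyme that clears acetaldehyde, changed by 0.02 to 0.16 against cHF and did not pass. Aldh3a2, the fatty aldehyde dehydrogenase, changed by 0.54 ± 0.163 with rosiglitazone alone (adjusted p = 0.0704).

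Rosiglitazone added to phospholipids (cHF+PC+R against cHF+PC livers) changed 1 of the 58 members (1.72%), where 0.134% of all genes were called (0.118% higher, 0.0154% lower). At an unadjusted p under 0.05 there were 14 members, beside 8.53% of all genes. The member called was Rdh9, higher by 0.87 ± 0.166 (1.83-fold, adjusted p = 0.0195) and on 8 of 8 slides. The call was lost without cHF+PC replicate 6 (0.83) and without cHF+PC+R replicate 3 (0.82) or 4 (0.81). The next by p were Akr1e1 (-0.25 ± 0.0655, adjusted p = 0.156) and Rdh16 (0.56 ± 0.182, adjusted p = 0.292). No member passed for the interaction in limma's fit, and neither did any other gene (0%), while 6.63% of all genes and 8 of the 58 members had an unadjusted p under 0.05. The smallest p among members was that of Aldh16a1 (0.27 ± 0.0626, adjusted p = 0.236), followed by Hsd11b1 and by Aldh7a1 (0.28 ± 0.0863, adjusted p = 0.607). Array weights called 3 genes for the interaction, none of them a member.

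The other 11 members were not tested. Of these, 8 were dim (Akr1c21, Aldh18a1, Aldh1l2, Aldh3b2, Hsd11b2, Hsd17b1, Hsd17b3 and Hsd3b1), with Cy5 well above background on at most 5 of 29 arrays. The other 3 (Hsd17b11, Hsd17b10 and Aldh5a1) were well above background on all 29 arrays, yet Feature Extraction had marked their spots as uneven in Cy5 on 29, 10 and 21 arrays, so too few values were left.

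With marked spots kept, an alternative chosen after seeing the data, Hsd17b11, a lipid droplet protein of hepatocytes, was higher than in cHF livers in all 3 supplemented groups. Its log2 ratios were 0.28, 0.42 and 0.72 (lowest, median, highest) in cHF+PC+R livers, 0.10, 0.20 and 0.34 in cHF+PC livers, -0.44, -0.10 and 0.10 in cHF+R livers and -0.68, -0.56 and -0.34 in cHF livers. All livers with phospholipids lay above all cHF livers, the cHF+PC+R and cHF+PC ranges overlapped, and of the cHF+R livers replicate 6 (-0.44) lay within the cHF range and replicate 3 (0.10) level with the lowest cHF+PC liver. The change was 1.00 ± 0.0683 with both supplements (adjusted p = 1.13e-10), 0.75 ± 0.0683 with phospholipids alone (adjusted p = 4.18e-08) and 0.41 ± 0.0734 with rosiglitazone alone (adjusted p = 0.000885), and it was upward on 7 of 7, 7 of 7 and 5 of 5 slides. In cHF+PC+R against cHF+PC livers it was 0.25 ± 0.066 and did not pass (adjusted p = 0.163). The authors' deposited value table, fitted in the same way, gave 0.99 ± 0.0796, 0.81 ± 0.0796 and 0.40 ± 0.0855, all past the threshold. With median centring the changes were 1.12, 0.78 and 0.75, of which the first passed, and with scaling between arrays 0.88, 0.98 and 0.40, of which the first and second passed. Hsd17b10 and Aldh5a1 did not pass. Since every Hsd17b11 spot was marked, the size of these changes rests on spots the image analysis set apart.

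**Figure D5:**
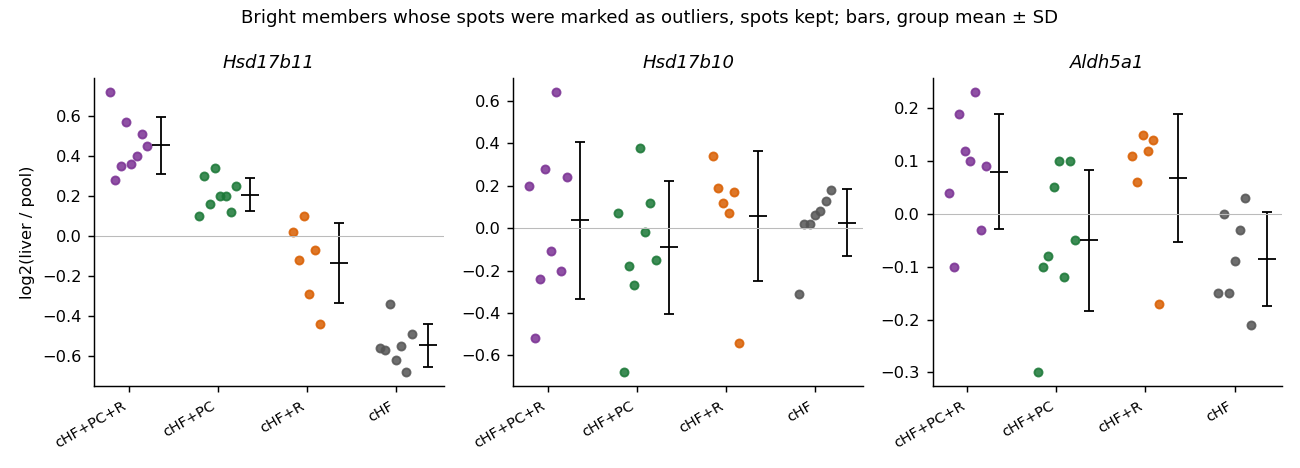
Log2 ratio to the pool (vertical axes, with different scales) of each liver for the 3 bright members whose spots had been marked as uneven, with those spots kept, and the group mean and SD as bars. For Hsd17b11 the mean is highest in cHF+PC+R and lowest in cHF livers, with overlap between neighbouring groups, and for Hsd17b10 and Aldh5a1 the groups overlap.

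Of 18 other genes of retinoid handling tested, 2 fell with both supplements (11.1% called, against 9.5% of all genes). These were Lrat, which esterifies retinol (-0.34 ± 0.0904, adjusted p = 0.0149), and Ttr, a transport protein of blood (-0.59 ± 0.104, adjusted p = 0.000533). With phospholipids alone 4 of the 18 changed (22.2%, against 3.93% of all genes): Lrat and Ttr fell too (-0.49 ± 0.0904 and -0.50 ± 0.104), while the retinol saturase Retsat (0.55 ± 0.151, adjusted p = 0.0373) and the retinaldehyde reductase Dhrs4 (0.21 ± 0.0611, adjusted p = 0.0455) rose. The list's median change was -0.08, -0.08 and -0.04 in cHF+PC+R, cHF+PC and cHF+R against cHF livers, beside 0.01, 0.00 and 0.01 over all genes.

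Of 12 tested genes of steroid handling outside the members, 3 rose with both supplements (25%, against 9.5% of all genes), among them Serpina6, the corticosteroid carrier of blood (0.47 ± 0.104, adjusted p = 0.00464), and Srd5a3 (0.29 ± 0.0626, adjusted p = 0.00386). With phospholipids alone 1 rose (8.33%, against 3.93% of all genes). With rosiglitazone alone none passed and 2 had an unadjusted p under 0.05, beside 15% of all genes. Several members are expressed by sex in mouse liver, so genes known to be higher in male or female liver were counted beside them. Of 13 male-biased genes, 2 rose and 1 fell with both supplements and likewise with phospholipids alone (23.1% in each, against 9.5% and 3.93% of all genes), and 1 (7.69%, against 3.12%), Cyp2d9, fell with rosiglitazone alone (-0.65 ± 0.0935, adjusted p = 6.35e-05). Of 12 female-biased genes, 4, 2 and 1 rose in these comparisons and none fell (33.3%, 16.7% and 8.33%, against 9.5%, 3.93% and 3.12% of all genes), with Cyp4a14 among them in all 3 (3.48 ± 0.545, 2.69 ± 0.563 and 2.39 ± 0.597).

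Markers of cell types also moved with the diets. All 10 hepatocyte markers were well above background on all 29 arrays, and their median change was 0.11, 0.06 and -0.12 in cHF+PC+R, cHF+PC and cHF+R against cHF livers. With both supplements 2 of the 10 rose (Cps1 by 0.53 ± 0.14 and Cyp2e1 by 0.59 ± 0.142) and 2 fell (Ttr, also on the retinoid list, and Serpina1a, at -0.30 ± 0.0767). With phospholipids alone Ttr fell, and with rosiglitazone alone Serpina1a fell (-0.35 ± 0.0825, adjusted p = 0.0131). The hepatocyte markers called in the 3 comparisons are 40%, 10% and 10% of the list, against 9.5%, 3.93% and 3.12% of all genes. Of 7 adipocyte markers 4 could be tested, and in cHF+R livers 3 of them rose (Cfd by 4.51 ± 0.835, Fabp4 by 1.27 ± 0.307 and Retn by 0.65 ± 0.185). That is 75% of those tested, against 3.12% of all genes. The fourth, Car3, fell in cHF+PC+R (-0.68 ± 0.193, adjusted p = 0.0246) and cHF+PC livers (-0.74 ± 0.193, adjusted p = 0.0265) against cHF livers, and 3 of the 4 (Cfd, Fabp4 and Car3) fell in cHF+PC+R against cHF+R livers. The shares called in these comparisons were 25%, 25% and 75%, against 9.5%, 3.93% and 7.14% of all genes. Of 3 pancreas markers tested, Cela1 fell in cHF+PC+R (-0.31 ± 0.0854, adjusted p = 0.0204) and cHF+PC livers (-0.30 ± 0.0854, adjusted p = 0.0455). That is 33.3% in each, against 9.5% and 3.93% of all genes. The mean log2 ratio of the 4 adipocyte markers lay between -1.54 and 1.30 in cHF+PC+R livers, -2.10 and -0.80 in cHF+PC livers, -0.40 and 1.59 in cHF+R livers and -1.30 and -0.64 in cHF livers. The adipocyte-defining Adipoq and Plin1 were well above background on 2 of 29 arrays each and Lep on 0. Of the 3 markers of steroid-making adrenal or gonad cells that could be tested none passed, while Cyp11b1 and Mc2r were well above background on 0 arrays. No Kupffer cell marker (of 7) and no cholangiocyte marker (of 4) passed in any of the 3 comparisons with cHF. At an unadjusted p under 0.05 there were 2 Kupffer markers in cHF+R livers, beside 15% of all genes. Of 10 stellate cell markers Lrat alone fell, in both phospholipid groups, and of 6 endothelial markers Cdh5 alone fell, with phospholipids alone. Lrat is 10% of its list, against 9.5% of all genes in cHF+PC+R and 3.93% in cHF+PC livers. Cdh5 is 16.7% of its list, against 3.93%. The part of any of these in the members' changes was not tested. Among the 11 members called in cHF+R against cHF livers, the cHF+R liver nearest to the cHF livers was replicate 6 in 6 cases.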

How the data were processed

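Scanner files held the intensity of each spot in Cy5 (1 liver) and Cy3 (a pool of all samples), read out with Feature Extraction 10.5.1.1 (Agilent), per the submitters' processing notes, and deposited without normalization between arrays, and the authors had excluded 1 cHF and 1 cHF+R array, per the labels. A second file deposited by the authors gives log2 values, 1 column a liver, that track the Cy5 channel (r from 0.990 to 0.999, median 9.03 in each); its centring and normalization are not given in the sources used here. Here, normexp (offset 50) and loess were run with limma 3.58.1 in R 4.3.3 (the R package data.table, version 1.17.8), spots marked as outliers were dropped, probes well above background on at least 6 arrays with values on at least 20 were kept, and each gene took its brightest probe, named through GRCm38.p6 tables. A model of 4 group means was fitted with lmFit and eBayes, two-sided, with Benjamini-Hochberg adjustment over 19465 genes. The fit was tested on simulated data. Figures were drawn with matplotlib.

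The members and the gene lists were chosen with earlier results of these data known. Values are given for every member past the threshold in any comparison, the 3 smallest p where fewer than 5 passed, range ends, disagreeing probes and well-known liver enzymes; Rdh1, Hsd17b11 and the other members with marked spots were named after their values were seen. Replicate numbers were not taken to pair livers. The median correlation of deviations between livers of the same number was 0.0215, and 14 of 40 exceeded 0.1. Between livers on different slides the median was -0.00758, and 59 of 275 exceeded 0.1. For replicates 1 to 3 the number is also that of the slide in every group. The same holds for replicates 1 to 8 of cHF+PC and cHF+PC+R and 1 to 5 of cHF+R. These values therefore cannot tell a pairing from a shared slide. A result on the retinoid list in cHF+R livers is not reported here.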

Additional observations from a re-analysis of the deposited data

Results flagged for a closer look

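Of 84 combinations of a called member and a group, 7 held a liver far from the rest of its group, where chance alone gives about 1 in 20. Aldh4a1 was 0.96 in cHF+PC+R replicate 6, with the next liver at 0.27, and -0.10 in cHF replicate 2, with the next at -0.29. Aldh9a1 was 0.11 in cHF+R replicate 5, with the next at -0.07. In cHF+PC replicate 6, Hsd17b12 was -1.20 (next -0.71) and Rdh7 was 0.34 (next 0.12). Rdh13 was 0.41 in cHF+PC replicate 4 (next 0.09), and Rdh14 was 0.39 in cHF replicate 3 (next 0.12).

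A signal also appeared in spots that were left out of the fit. Hsd17b11, with spots marked as uneven kept, changed by 1.00 in cHF+PC+R, 0.75 in cHF+PC and 0.41 in cHF+R against cHF livers, and by 0.59 in cHF+PC+R against cHF+R livers.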

How the results depend on the processing

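The number of members called was 13 in cHF+PC+R, 6 in cHF+PC and 11 in cHF+R against cHF livers, 11 in cHF+PC+R against cHF+R and 1 in cHF+PC+R against cHF+PC livers. With median centring in place of loess these counts were 1, 0, 0, 0 and 0, and with scaling between arrays 0, 1, 0, 0 and 0. Over all genes the calls in this order numbered 1850, 765, 607, 1389 and 26 with loess. They numbered 82, 10, 81, 53 and 2 with median centring, and 144, 253, 70, 74 and 5 with scaling. Blocking on slide, the count of members in cHF+R against cHF livers was 7 (583 over all genes). With array weights that in cHF+PC+R against cHF+PC livers was 2 (164 over all genes). The cause was not tested. The replicate block, under numbers not taken to pair livers, gave 12, 5, 10, 11 and 1. With 1 array left out, the counts ranged from 8 to 13 (8 without cHF replicate 7), 5 to 6, 7 to 11 (7 without cHF+R replicate 3 or 5), 9 to 14 and 0 to 1 (0 without cHF+PC replicate 6 or cHF+PC+R replicate 3 or 4), and the interaction had 0 throughout.

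Median centring turned the sign of 4 calls: in cHF+R against cHF livers Aldh16a1 became 0.02, Aldh8a1 0.13 and Rdh7 0.08, and in cHF+PC+R against cHF+R livers Rdh7 became -0.05. It moved the median of all genes in cHF+R against cHF livers to 0.152, against 0.0138 with loess. Of the 42 calls, 25 remained under each of the 13 alternatives apart from these 2 scalings. The authors' deposited value table lost every call of Rdh16, Rdh13 and Rdh7. It also lost Hsd17b12 with rosiglitazone alone and Hsd3b3 with both supplements. The share of higher genes among all called in cHF+R against cHF livers was 64.9% with loess, 93.8% with median centring, 85.7% with scaling between arrays and 39.5% in the authors' deposited value table. In cHF+PC+R against cHF livers it was 49.9% with loess and 30.5% in that table. In cHF+PC+R against cHF+R livers it was 46.4% with loess, 13.2% with median centring, 28.4% with scaling and 58.7% in that table, and in cHF+PC against cHF livers 46.3%, and 57.5% with array weights. Signal over background limits the 8 dim members.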
